A study of Mus musculus with 8 samples.

Results

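Messenger RNA of p53 and 9 of its classical target genes was followed across mouse long-term haematopoietic stem cells (LT-HSCs). The 10 genes, chosen by symbol, were Trp53, Mdm2, Bax, Bbc3, Pmaip1, Ccng1, Phlda3, Trp53inp1, Sesn2 and Zmat3, out of 24421 genes in the deposited table. All 10 were found in all 8 libraries, and all 10 passed the filter on low counts that left 15917 genes for testing. The cells were sorted from bone marrow as lineage-negative, CD117-positive and Sca1-positive cells with high CD150 and low CD48, and a Vwf-GFP reporter separated them into a Vwf+ and a Vwf- fraction. The 4 groups were Vwf+ WT, Vwf- WT, Vwf+ Dnmt3a+/- and Vwf- Dnmt3a+/-, each with 2 libraries from mice of 10 to 12 months. In each group replicate 1 was a pool of male mice and replicate 2 a pool of female mice, with 3 to 4 mice to a pool, so single mice were not resolved. All 8 libraries carried the GFP reporter that defined the fractions, and no treatment was given in the labels. The altered Dnmt3a allele is not described in the labels, nor whether the Vwf+ and Vwf- libraries of 1 genotype and sex came from the same mice. RNA counts do not separate alleles.

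The protein p53, encoded by Trp53 in the mouse, is a transcription factor that is stabilised by DNA damage and other stress and then raises the transcription of genes for cell cycle arrest, cell death, repair and metabolism. Its amount is set largely by degradation of the protein through the ubiquitin ligase Mdm2, itself the product of a p53 target gene, so that Mdm2 closes a negative feedback loop. In haematopoietic stem cells p53 is known for its part in quiescence, in the competition between stem cells and in the response to irradiation. Vwf encodes von Willebrand factor, and its reporter marks stem cells biased toward platelets, while Dnmt3a encodes a de novo DNA methyltransferase.

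The promoter windows of 4 of these genes are shown because they bracket the results, namely the gene for p53 itself, the 2 targets with the highest levels and the target with the largest fitted fold difference above 1 between fractions. RefSeq promoters of the GRCm38.p6 build were matched by symbol, each window holding 250 bases before and 50 bases after the annotated start of transcription. Windows of 7 of the 10 genes were searched. Trp53inp1 and Zmat3 had no window in the reference used, and Pmaip1 was left out of the search, which therefore says nothing about these genes. The search was for the p53 half-site, a motif of 10 bases whose consensus reads the same on both strands, and no other motif was searched. It was present in 8.36% of all 32851 windows of this length, and among the 7 genes in the windows of Trp53, Mdm2, Bax and Ccng1. Capitals mark it below. The windows are chr11:69580109-69580408 on the plus strand for Trp53, chr10:117710709-117711008 on the minus strand for Mdm2, chr11:40755237-40755536 on the minus strand for Ccng1 and chr1:135765835-135766134 on the plus strand for Phlda3, each written 5′ to 3′ along its gene.
Trp53: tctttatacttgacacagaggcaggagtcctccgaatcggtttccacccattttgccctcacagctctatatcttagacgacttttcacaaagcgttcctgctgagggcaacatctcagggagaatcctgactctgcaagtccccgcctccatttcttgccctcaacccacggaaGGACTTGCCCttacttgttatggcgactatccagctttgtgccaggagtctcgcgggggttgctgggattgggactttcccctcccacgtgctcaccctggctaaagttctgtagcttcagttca
Mdm2: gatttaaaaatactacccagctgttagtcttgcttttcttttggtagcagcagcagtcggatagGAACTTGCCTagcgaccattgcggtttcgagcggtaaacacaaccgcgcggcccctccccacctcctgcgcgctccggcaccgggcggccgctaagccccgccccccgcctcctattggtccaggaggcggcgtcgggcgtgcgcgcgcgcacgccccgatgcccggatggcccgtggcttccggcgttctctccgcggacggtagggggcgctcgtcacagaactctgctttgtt
Ccng1: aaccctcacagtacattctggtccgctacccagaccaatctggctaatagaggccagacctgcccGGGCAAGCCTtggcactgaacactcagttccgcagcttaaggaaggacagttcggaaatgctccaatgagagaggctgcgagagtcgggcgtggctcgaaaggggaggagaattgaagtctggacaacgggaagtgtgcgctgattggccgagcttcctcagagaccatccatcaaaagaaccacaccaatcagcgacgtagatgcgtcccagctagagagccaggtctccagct
Phlda3: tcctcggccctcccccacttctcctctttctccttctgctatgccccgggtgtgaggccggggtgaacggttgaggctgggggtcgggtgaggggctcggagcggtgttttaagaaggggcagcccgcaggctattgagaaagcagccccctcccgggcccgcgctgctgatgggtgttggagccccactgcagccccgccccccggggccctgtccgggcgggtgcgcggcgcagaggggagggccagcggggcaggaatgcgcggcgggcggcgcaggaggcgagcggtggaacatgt
Counted from the start of transcription, the motif began at position -75 in Trp53 (GGACTTGCCC), -186 in Mdm2 (GAACTTGCCT) and -185 in Ccng1 (GGGCAAGCCT). In Bax it began at position -201 (AGGCAAGCTT). The windows of Phlda3, Sesn2 and Bbc3 held no match, which says only that these letters are not in those windows. A match is a description of the sequence and not a site of binding.

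Total counts per library ran from 21809278 to 39402418, and 17524 to 19626 genes had a count. Levels are given in CPM, in which each library is brought to 1e+06 counts with a correction by TMM (trimmed mean of M-values, factors 0.958 to 1.06), or, where genes are compared with each other, in the deposited TPM, which also divides by gene length. Vwf stood at 1034 to 1409 CPM in the 4 Vwf+ libraries and at 98.9 to 116 CPM in the 4 Vwf- libraries, so that the fractions were separated as labelled. The 9 LT-HSC markers were detected in all libraries, with summed levels of 2031 to 2339 CPM in Vwf+ and 1848 to 2113 CPM in Vwf- libraries. The largest parts of the sum were Kit (815 to 1032 CPM) and Hlf (364 to 535 CPM). Single markers varied more, with Slamf1 at 20.1 to 87.1 CPM, Procr at 44.3 to 152 CPM and Fgd5 at 88.9 to 291 CPM over the 8 libraries. Dnmt3a stood at 175 to 251 CPM in WT and 179 to 361 CPM in Dnmt3a+/- libraries. Within each fraction and sex the Dnmt3a+/- library was the higher. These levels are no check of the genotype labels, since both alleles are counted together. Replicates of a group differed by far more than sampling noise, with chi-square values of 29.6 to 129 per degree of freedom.

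The genes spanned a wide range of levels. On the TPM scale Trp53 was highest, at 145 ± 21.1 TPM (SD, n = 8), and it was above every other of the 10 genes in 8 of 8 libraries. Mdm2 followed at 59.3 ± 8.84 TPM, Ccng1 at 58.6 ± 6.52 TPM and Bax at 49.1 ± 5.59 TPM (SD, n = 8). Mdm2 and Ccng1 could not be ordered, since Mdm2 was the higher in 4 of 8 libraries. A middle group was formed by Trp53inp1 at 17.0 ± 2.06 TPM, Bbc3 at 14.2 ± 1.69 TPM and Sesn2 at 13.2 ± 2.67 TPM, whose ranges overlapped. Phlda3 at 4.92 ± 3.02 TPM and Zmat3 at 2.84 ± 0.707 TPM came next, and Pmaip1 was last at 0.353 ± 0.279 TPM (SD, n = 8). Among all tested genes, mean TPM placed Trp53 at percentile 94.8 and Pmaip1 at percentile 8.76.

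**Figure D1:**
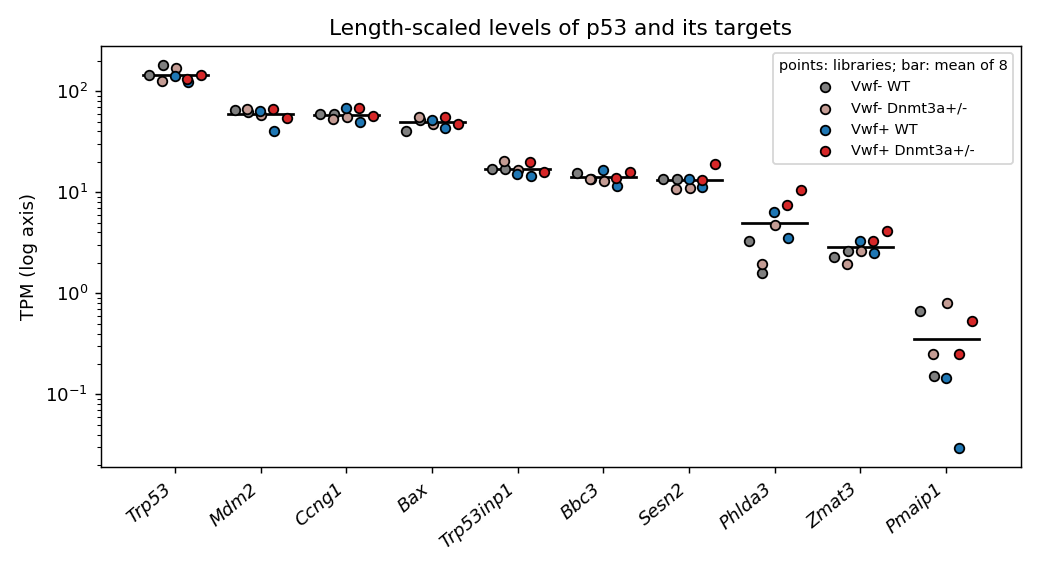
TPM of the 10 genes on a log axis, genes in order of their mean; points are the 8 libraries coloured by group and bars are means. Trp53 sat at 122 to 181 TPM, above all 9 others, while Phlda3 spread from 1.60 to 10.5 TPM and Pmaip1 from 0.0294 to 0.805 TPM.

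Trp53 itself (chromosome 11, 69580359 to 69591873, plus strand, GENCODE M21 on GRCm38, as for all coordinates that follow) stood, with the male pool always given first, at 123 and 126 CPM in WT and 112 and 125 CPM in Dnmt3a+/- pools of the Vwf+ fraction. Pools of the Vwf- fraction had 129 and 151 CPM of it when WT and 109 and 153 CPM when Dnmt3a+/-. The lowest and the highest value both belonged to the Vwf- Dnmt3a+/- group, and the groups overlapped. A processed pseudogene of Trp53 is annotated at chromosome 17, 54419680 to 54420841, and how reads shared with it were assigned is not given in the sources used here. Wrap53 (chromosome 11, 69561758 to 69580255), the neighbour that is transcribed away from Trp53 on the opposite strand, ends short of Trp53 in this annotation and stood at 12.4 to 19.3 CPM.

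Mdm2 (chromosome 10, 117688875 to 117710758, minus strand), the ubiquitin ligase that holds p53 in check, stood at 92.0 and 69.1 CPM in WT and 94.2 and 77.2 CPM in Dnmt3a+/- pools of the Vwf+ fraction, and at 97.5 and 85.7 CPM in WT and 96.3 and 85.4 CPM in Dnmt3a+/- pools of the Vwf- fraction. The male library was the higher in each group, and all 4 male libraries were above all 4 female libraries. The sexes likewise did not overlap for 11.3% of all tested genes.

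Of the 3 genes for pro-death BCL2 proteins, Bax (chromosome 7, 45461697 to 45466898, minus strand), which permeabilises the outer mitochondrial membrane, stood at 21.0 and 20.8 CPM in WT and 22.4 and 19.1 CPM in Dnmt3a+/- pools of the Vwf+ fraction, and at 16.8 and 20.4 CPM in WT and 22.5 and 19.5 CPM in Dnmt3a+/- pools of the Vwf- fraction. Apart from 16.8 CPM in the male Vwf- WT library, the values lay within a narrow band. Bax shares 192 exon bases with the gene model Gm45808 on its strand, so the counts of those bases are of uncertain assignment. Bbc3 (chromosome 7, 16308393 to 16318205, plus strand), which encodes the BH3-only protein Puma, stood at 15.3 and 12.6 CPM in WT and 12.7 and 14.6 CPM in Dnmt3a+/- pools of the Vwf+ fraction, and at 14.7 and 11.9 CPM in WT and 12.5 and 12.2 CPM in Dnmt3a+/- pools of the Vwf- fraction. Its highest and lowest library differed by 1.29-fold, and the groups overlapped. Pmaip1 (chromosome 18, 66458533 to 66465565, plus strand), which encodes the BH3-only protein Noxa, had only 4 and 1 counts in Vwf+ WT, 7 and 18 in Vwf+ Dnmt3a+/- pools, 24 and 6 in Vwf- WT and 13 and 32 in Vwf- Dnmt3a+/- pools. At 0.0431 to 1.02 CPM its level was too low for its differences to be resolved at this depth.

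Among targets that act on growth and signalling, Ccng1 (chromosome 11, 40748552 to 40755311, minus strand), the gene for cyclin G1, stood at 112 and 96.0 CPM in WT and 109 and 90.7 CPM in Dnmt3a+/- pools of the Vwf+ fraction, and at 98.5 and 92.4 CPM in WT and 86.9 and 92.6 CPM in Dnmt3a+/- pools of the Vwf- fraction. The 2 male Vwf+ libraries were the highest, and the remaining 6 lay between 86.9 and 98.5 CPM. Phlda3 (chromosome 1, 135766119 to 135769136, plus strand), whose product restrains the kinase AKT by competing for membrane lipids, stood at 4.36 and 2.84 CPM in WT and 5.0 and 7.13 CPM in Dnmt3a+/- pools of the Vwf+ fraction, and at 2.34 and 1.05 CPM in WT and 1.34 and 3.35 CPM in Dnmt3a+/- pools of the Vwf- fraction. These levels rested on 35 to 197 counts per library. Each Vwf+ library was above the Vwf- library of the same genotype and sex, but the fractions overlapped, since 3.35 CPM in Vwf- Dnmt3a+/- replicate 2 exceeded 2.84 CPM in Vwf+ WT replicate 2. Trp53inp1 (chromosome 4, 11156431 to 11174379, plus strand), which encodes a stress-induced nuclear protein that promotes p53 activity and autophagy, stood at 38.4 and 43.2 CPM in WT and 49.7 and 40.2 CPM in Dnmt3a+/- pools of the Vwf+ fraction, and at 44.4 and 41.1 CPM in WT and 51.3 and 43.0 CPM in Dnmt3a+/- pools of the Vwf- fraction. The 2 male Dnmt3a+/- libraries were the highest, and the groups overlapped.

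The metabolic target Sesn2 (chromosome 4, 132492032 to 132510501, minus strand), whose product sestrin 2 restrains the growth kinase complex mTORC1, stood at 16.7 and 16.3 CPM in WT and 16.1 and 23.5 CPM in Dnmt3a+/- pools of the Vwf+ fraction, and at 17.3 and 16.2 CPM in WT and 13.4 and 14.1 CPM in Dnmt3a+/- pools of the Vwf- fraction. The 4 WT libraries lay close together, while the Dnmt3a+/- libraries included both the highest value and the 2 lowest. Zmat3 (chromosome 3, 32334792 to 32366014, minus strand), which encodes an RNA-binding zinc-finger protein that acts on splicing, stood at 11.9 and 10.7 CPM in WT and 11.9 and 15 CPM in Dnmt3a+/- pools of the Vwf+ fraction, and at 8.49 and 9.16 CPM in WT and 7.12 and 9.83 CPM in Dnmt3a+/- pools of the Vwf- fraction. All 4 Vwf+ libraries were above all 4 Vwf- libraries, the nearest values being 10.7 and 9.83 CPM. The fractions likewise did not overlap for 13% of all tested genes.

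**Figure D2:**
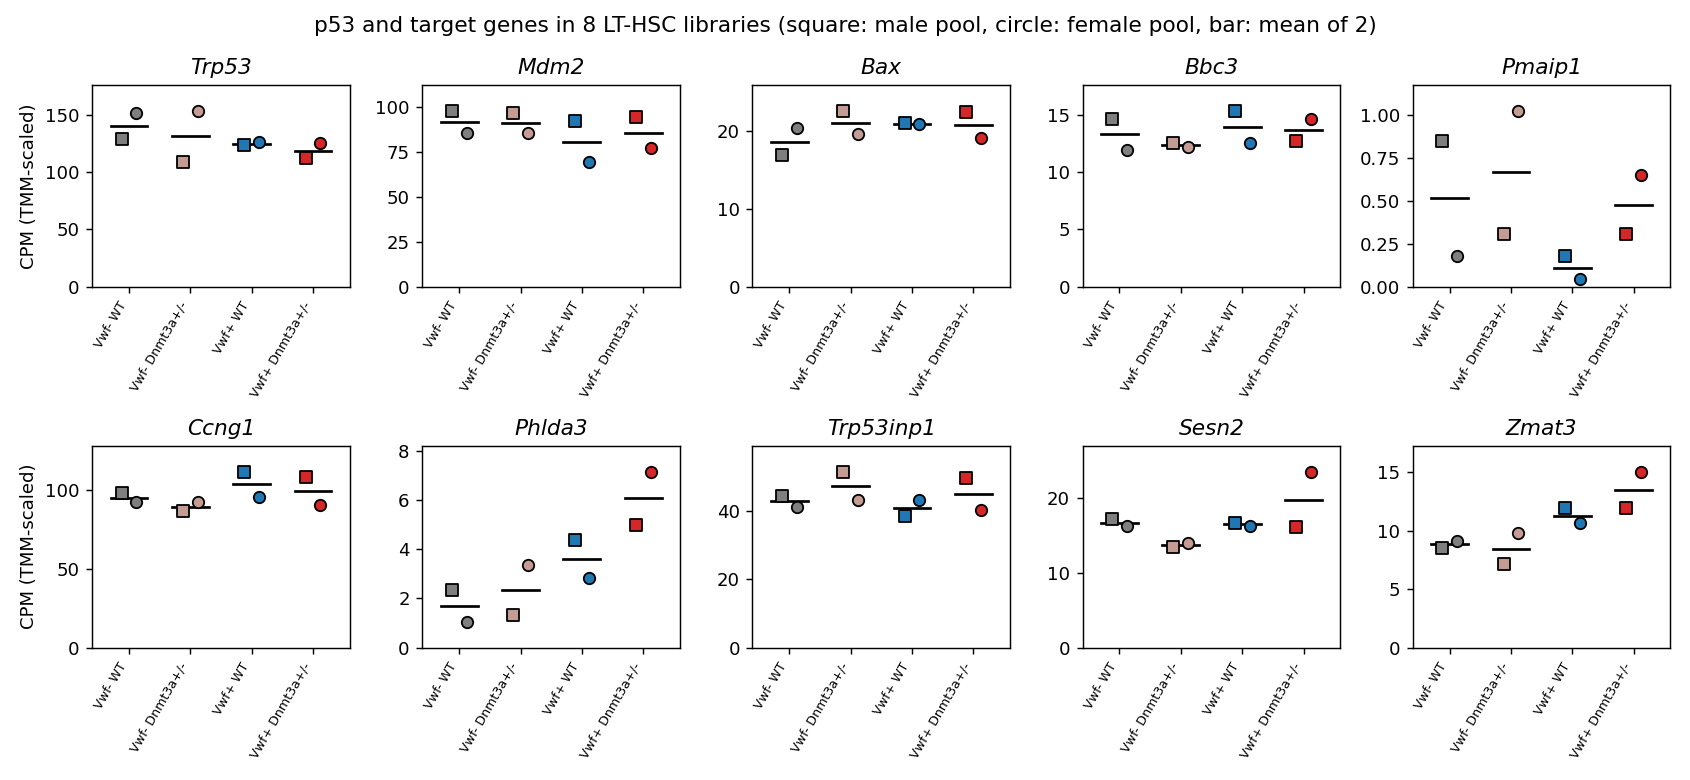
CPM of each of the 10 genes in the 4 groups, on axes that start at 0; squares are male pools, circles are female pools and bars are means of 2 libraries. Zmat3 separated Vwf+ from Vwf- libraries, as did 13% of all tested genes. Phlda3 was highest in the Vwf+ Dnmt3a+/- group (5.0 and 7.13 CPM), and Mdm2 was higher in the male library of each group. All male libraries were above all female libraries for Mdm2, as for 11.3% of all tested genes.

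The first comparison asked whether the p53 pathway differs between platelet-biased and other LT-HSCs. In the quasi-likelihood F-test of edgeR on the counts, with p-values adjusted over all tested genes by the Benjamini-Hochberg method and a threshold of 0.05, 0 of the 10 genes passed averaged over genotype, against 5.44% of all tested genes. At an unadjusted p under 0.05 there were 2 of 10, Phlda3 and Zmat3, against 17.2% of all tested genes, and DESeq2 called 1 of 10, Phlda3, against 8.91%. With a block for replicate number, which is also the sex of the pool and so pairs the male and the female libraries across groups, Phlda3 passed and was the only 1 of the 10 to do so, against 13.4% of all tested genes. The 10 genes had 6 positive and 4 negative log2 differences, with a median of 0.09 against -0.01 for all tested genes.

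Phlda3 averaged 4.83 ± 1.78 CPM in Vwf+ and 2.02 ± 1.05 CPM in Vwf- libraries (SD, n = 4). The log2 difference was 1.24 ± 0.40 (SE), or 2.35-fold with a 95% interval of 1.26 to 4.39 (edgeR, adjusted p = 0.13), and it was 1.24 ± 0.37 with the block (edgeR, adjusted p = 0.030). It was higher in Vwf+ cells in 4 of 4 pairs of 1 genotype and sex, and the value was 1.09 ± 0.58 in WT and 1.38 ± 0.57 in Dnmt3a+/- cells (SE). Both moved with single libraries, in WT to 0.62 without Vwf- WT replicate 2, to 1.77 without Vwf- WT replicate 1 and to 0.73 without Vwf+ WT replicate 1, and in Dnmt3a+/- cells to 0.87 without Vwf- Dnmt3a+/- replicate 1 and to 2.18 without Vwf- Dnmt3a+/- replicate 2. With each such pair as its own block, a fit that assumes a shared source the labels do not give, the adjusted p of Phlda3 was 0.0013. With no filter on low counts it was 0.012, against 7.23% of all tested genes. Without Vwf- Dnmt3a+/- replicate 2 the difference was 1.63 and passed (edgeR, adjusted p = 0.039, against 4.85% of all tested genes), while without any 1 of the other 7 libraries it lay between 0.97 and 1.57 and did not pass.

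Zmat3 averaged 12.4 ± 1.85 CPM in Vwf+ and 8.65 ± 1.16 CPM in Vwf- libraries (SD, n = 4). Its log2 difference was 0.51 ± 0.19 (SE), or 1.43-fold with a 95% interval of 1.07 to 1.90 (edgeR, adjusted p = 0.17), and it was higher in Vwf+ cells in 4 of 4 pairs. The fractions did not overlap, which held for 13% of all tested genes. With replicate number as a block its adjusted p was 0.056, and with each pair as a block it was 0.026, so that 2 of the 10 genes passed in the latter fit, against 17.3% of all tested genes.

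Like Phlda3 and Zmat3, the other 8 genes did not pass in the main edgeR fit, and they passed in no alternative. Sesn2 had a log2 difference of 0.25 ± 0.16 (SE), a fold of 1.19 with a 95% interval of 0.932 to 1.53 (edgeR, adjusted p = 0.50). Trp53 (-0.16 ± 0.13), Mdm2 (-0.14 ± 0.13), Bax (0.07 ± 0.14), Bbc3 (0.11 ± 0.16), Ccng1 (0.14 ± 0.11) and Trp53inp1 (-0.07 ± 0.12, each a log2 difference ± SE) had 95% intervals of the fold that all lay between 0.739 and 1.38. Each of these 6 therefore differed by less than 1.5-fold at the edge of its interval, in a comparison in which Vwf itself differed 11.2-fold. Pmaip1 had a log2 difference of -1.31 ± 0.90 (SE), with an interval of the fold from 0.101 to 1.62.

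Within a genotype the same 10 genes gave 0 calls in WT, against 1.97% of all tested genes, and 0 calls in Dnmt3a+/- cells, against 1.06% (edgeR). DESeq2 also gave 0 calls, against 4.59% of all tested genes in WT and 3.1% in Dnmt3a+/- cells, and so did the block, against 8.35% and 5.37%. At an unadjusted p under 0.05 there were 0 of 10 in WT and 3 of 10 in Dnmt3a+/- cells, namely Phlda3, Sesn2 and Zmat3, against 12.4% and 9.02% of all tested genes. With each pair as a block, Phlda3 passed in Dnmt3a+/- cells (edgeR, adjusted p = 0.026), against 7.9% of all tested genes. Among the Dnmt3a+/- libraries Sesn2 averaged 19.8 ± 5.23 CPM where the cells were Vwf+ and 13.8 ± 0.428 CPM where they were Vwf- (SD, n = 2), a log2 difference of 0.53 ± 0.23 (SE, edgeR, adjusted p = 0.51), while in WT cells it was -0.02 ± 0.23 (SE). Without Vwf+ Dnmt3a+/- replicate 2 the difference of Sesn2 in Dnmt3a+/- cells was 0.23, and with any 1 of the other 7 libraries left out it was 0.51 to 0.78.

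Markers of other cells were measured beside these values. The 6 endothelial markers summed to 231 to 255 CPM in Vwf+ and 125 to 166 CPM in Vwf- libraries and single members of this list ran from Cdh5, at 0.0354 to 3.55 CPM, through Cldn5 (0.480 to 38.8 CPM) and Kdr (4.02 to 48.5 CPM) to Tek (54.8 to 107 CPM). The 5 markers of megakaryocytes, the platelet-forming cells, summed to 238 to 379 CPM in Vwf+ and 186 to 240 CPM in Vwf- libraries, most of it from Itga2b at 140 to 276 CPM. The 4 stromal markers summed to 10.0 to 27.5 CPM in Vwf+ and 3.90 to 10.4 CPM in Vwf- libraries, and the 4 neutrophil markers measured to 25.7 to 120 CPM and 11.9 to 39.8 CPM. The 4 monocyte and macrophage markers summed to 9.34 to 30.3 CPM and 13.4 to 21.1 CPM. B cell markers summed to at most 3.03 CPM and T and NK cell markers to at most 3.82 CPM, while the 5 erythroid markers summed to 8.38 to 17.4 CPM, and of these the haemoglobin genes Hba-a1 and Hbb-bs were at 0 in all 8 libraries. Their part in the differences of Phlda3 and Zmat3 was not tested, and in sorted pools fewer cells of a type and less RNA per cell cannot be told apart.

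The second comparison set Dnmt3a+/- against WT cells for the same genes. In edgeR 0 of 10 genes passed between Dnmt3a+/- and WT averaged over Vwf status, against 0% of all tested genes. The number was 0 also in DESeq2 (0.101% of all tested genes), with the replicate block (0.188%) and at an unadjusted p under 0.05 (3.24%). The log2 differences were smallest for Sesn2 at -0.01 ± 0.16, a sign that flipped with other scalings, for Mdm2 at 0.04 ± 0.13, for Bbc3 at -0.07 ± 0.16, for Ccng1 at -0.07 ± 0.11 and for Bax at 0.08 ± 0.14 (SE). Trp53 was at -0.09 ± 0.13, Zmat3 at 0.10 ± 0.18 and Trp53inp1 at 0.14 ± 0.12 (SE). For these 8 genes the 95% intervals of the fold lay between 0.746 and 1.42, so that a change of 1.5-fold in either direction fell outside each of them. The intervals were wide for Phlda3, from 0.824 to 2.83 around a fold of 1.53, and for Pmaip1, from 0.583 to 9.35.

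Within the fractions 0 of 10 genes passed in Vwf+ and 0 of 10 in Vwf- cells, again against 0% of all tested genes in edgeR. In both there were 0 with the block (0.0377% of all tested genes in Vwf+ and 0.0126% in Vwf- cells), 0 in DESeq2 (0.0314% and 0.0126%) and 0 at an unadjusted p under 0.05 (2.28% and 1.33%). In Vwf+ cells Phlda3 averaged 6.07 ± 1.51 CPM in Dnmt3a+/- and 3.6 ± 1.08 CPM in WT libraries (SD, n = 2), a log2 difference of 0.75 ± 0.56 (SE). Zmat3 averaged 13.5 ± 2.19 and 11.3 ± 0.877 CPM in the same libraries, a difference of 0.26 ± 0.26. In Vwf- cells Sesn2 averaged 13.8 ± 0.428 CPM in Dnmt3a+/- and 16.8 ± 0.724 CPM in WT libraries (SD, n = 2), a log2 difference of -0.29 ± 0.23 (SE), and Bax was at 0.18 ± 0.20.

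The interaction asked whether the difference between genotypes depends on the fraction. It gave 0 calls among the 10 genes in edgeR, 0 with the block, 0 in DESeq2 and 0 at an unadjusted p under 0.05, against 0%, 0%, 0% and 0.999% of all tested genes. Sesn2 had the smallest p among the 10, with an interaction of 0.55 ± 0.32 (SE) on the log2 scale (edgeR, adjusted p = 1). The calls and the larger differences of Phlda3 and Sesn2 in Dnmt3a+/- cells are therefore not shown to differ from those in WT cells.

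**Figure D3:**
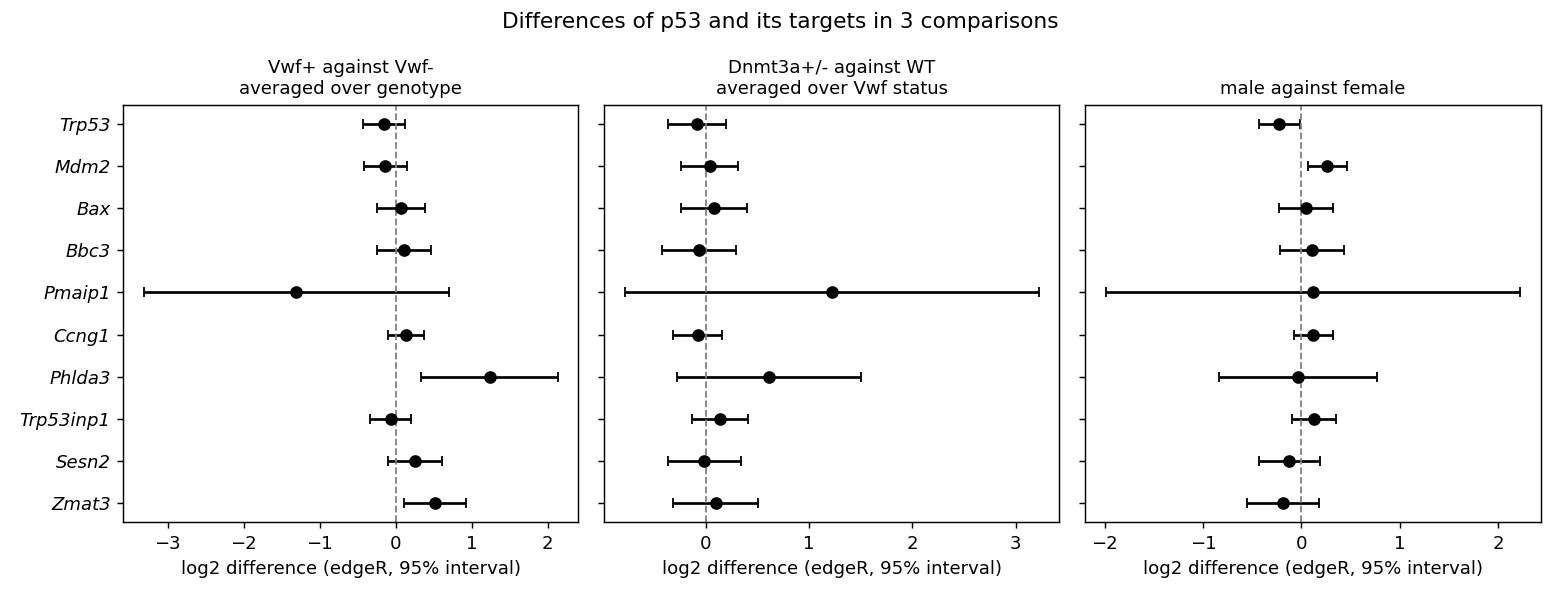
Log2 differences of the 10 genes with 95% intervals from edgeR, for Vwf+ against Vwf-, Dnmt3a+/- against WT and male against female. Only the intervals of Phlda3 and Zmat3 lay above 0 in the first panel, none of the 10 excluded 0 in the second, and Trp53 and Mdm2 lay on opposite sides of 0 in the third.

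The third comparison set male against female pools, with a term for sex beside the group means. Sex is also the replicate number in every group, so the 2 cannot be told apart. In edgeR 0 of 10 genes passed between the sexes, against 10.5% of all tested genes, and DESeq2 also gave 0 (13%). At an unadjusted p under 0.05 there were 2 of 10, Trp53 and Mdm2, against 25.1%. Mdm2 averaged 95 ± 2.44 CPM in male and 79.3 ± 7.88 CPM in female libraries (SD, n = 4), with no overlap, which held for 11.3% of all tested genes. The log2 difference was 0.26 ± 0.09 (SE), or 1.20-fold, with the male library higher in 4 of 4 pairs (edgeR, adjusted p = 0.078). Trp53 went the other way, at 119 ± 9.34 CPM in male and 139 ± 15.4 CPM in female libraries, a log2 difference of -0.23 ± 0.10 (SE) with the female library higher in 4 of 4 pairs (edgeR, adjusted p = 0.16). Trp53 passed without Vwf+ WT replicate 1 (edgeR, adjusted p = 0.036) or replicate 2 (0.038), against 16.7% and 16.9% of all tested genes. Mdm2 passed where libraries were scaled by their totals alone (0.017, against 11.5% of all tested genes) or by the upper quartile (0.036, against 10.3%), settings under which the median of all genes stood at 0.11 and 0.06 on the log2 scale in favour of male libraries. The nuclear RNA Malat1 stood 2.19-fold higher in male libraries (edgeR, adjusted p = 0.00034), and its part in these differences was not tested. For the other 8 genes the log2 difference was at most 0.19 in size, but its 95% interval was wide for Pmaip1 (-1.99 to 2.22) and Phlda3 (-0.84 to 0.77). With a library left out, signs turned for Pmaip1 (-0.62 to 0.93), Phlda3 (-0.42 to 0.39), Bax (-0.02 to 0.15) and Sesn2 (-0.20 to 0.02).

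Mdm4, the partner of Mdm2 that blocks the activation domain of p53, was one of a pair of restraints that passed between the sexes, in opposite directions. Its level was 158 and 116 CPM in WT and 177 and 127 CPM in Dnmt3a+/- pools of the Vwf+ fraction, and 156 and 130 CPM in WT and 215 and 119 CPM in Dnmt3a+/- pools of the Vwf- fraction, male pool first. All 4 male libraries were above all 4 female libraries, and 11.3% of all tested genes likewise had no overlap between the sexes. The log2 difference of Mdm4 was 0.51 ± 0.10 (SE), or 1.43-fold (edgeR, adjusted p = 0.0036). The other was Trim28, a corepressor that cooperates with Mdm2, which was 0.762-fold in male against female libraries (edgeR, adjusted p = 0.021) and lost its call in 5 of 16 alternatives. Between fractions Mdm4 was at -0.10 ± 0.20 (SE), a sign that flipped without Vwf+ Dnmt3a+/- replicate 2, Vwf+ WT replicate 2 or Vwf- Dnmt3a+/- replicate 1 (0.01, 0.01 and 0.14).

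The wider pathway was followed in 93 further genes, of which 89 were tested. They were upstream activators and restraints of p53, other targets in arrest, death, metabolism and repair, p53 family genes and other BCL2 family genes. Between Vwf+ and Vwf- cells averaged over genotype 6 of the 89 rose and 2 fell, against 3.76% and 1.68% of all tested genes, and the median log2 difference of the 89 was -0.09 against -0.01. DESeq2 called 7 higher and 5 lower, against 5.47% and 3.44%, and with the replicate block 9 were higher and 9 lower, against 7.42% and 5.97%. Within WT there were 4 higher and 0 lower (edgeR, against 1.48% and 0.496% of all tested genes), and within Dnmt3a+/- 1 higher and 0 lower (0.892% and 0.17%). With the replicate block there were 7 higher and 5 lower in WT, against 4.57% and 3.78%, and 8 higher and 1 lower in Dnmt3a+/- cells, against 3.52% and 1.85%. In DESeq2 there were 6 higher and 2 lower in WT, against 3.02% and 1.57%, and 5 higher and 1 lower in Dnmt3a+/- cells, against 2.36% and 0.748%. Between genotypes 0 of the 89 passed in either direction, averaged or within a fraction, in edgeR, DESeq2 and the block, with 2 at an unadjusted p under 0.05 on average, against 3.24% of all tested genes.

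The antiproliferative gene Btg2 (chromosome 1, 134075170 to 134079120) and the metabolic targets Sesn1 and Cpt1c were among those higher in Vwf+ cells. Sesn1 (chromosome 10, 41809935 to 41908424), the paralogue of Sesn2, stood at 113 to 138 CPM in Vwf+ and 71.9 to 85.8 CPM in Vwf- libraries, and it rose 1.57-fold with a 95% interval of 1.33 to 1.84 (edgeR, adjusted p = 0.0053). The fractions did not overlap for Sesn1, as for 13% of all tested genes. Cpt1c, a carnitine palmitoyltransferase of the endoplasmic reticulum, stood at 10.8 to 18.6 CPM in Vwf+ and 2.22 to 6.73 CPM in Vwf- libraries and rose 3.97-fold (edgeR, adjusted p = 0.0043). The epoxide hydrolase gene Ephx1 rose 2.49-fold (adjusted p = 0.0042) and the adenylate kinase gene Ak1 2.35-fold (adjusted p = 8e-04). Btg2 rose 2.84-fold (adjusted p = 0.016) and the desmosomal membrane gene Perp 2.75-fold (adjusted p = 0.041). The pantothenate kinase gene Pank1 fell to 36.4 ± 0.773 CPM from 57.2 ± 6.56 CPM (adjusted p = 0.0097), and the checkpoint kinase gene Chek1 to 11.0 ± 2.94 CPM from 22.4 ± 8.78 CPM (SD, n = 4, adjusted p = 0.044).

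Of these 8, Sesn1, Cpt1c, Ephx1 and Ak1 held their calls without any 1 of the 8 libraries and in limma on TPM. In limma on TPM the adjusted p was 0.059 for Btg2, 0.071 for Perp, 0.065 for Pank1 and 0.12 for Chek1, so that these 4 lost their calls. Btg2 lost its call without Vwf+ WT replicate 1 (edgeR, adjusted p = 0.053), and Pank1 without Vwf+ WT replicate 2 (0.053) or Vwf- WT replicate 2 (0.062). Perp lost its call without Vwf+ Dnmt3a+/- replicate 2 (0.099), Vwf+ WT replicate 2 (0.18), Vwf- WT replicate 1 (0.11) or Vwf- WT replicate 2 (0.086). Chek1 lost its call without Vwf+ Dnmt3a+/- replicate 1 (0.11) or 2 (0.065), Vwf+ WT replicate 1 (0.12) or 2 (0.14), Vwf- Dnmt3a+/- replicate 2 (0.073) or Vwf- WT replicate 2 (0.17).

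Cdkn1a, which encodes the cell cycle inhibitor p21 and is the best known arrest target of p53, stood at 4.45 and 3.36 CPM in WT and 5.35 and 10.5 CPM in Dnmt3a+/- pools of the Vwf+ fraction, and at 2.65 and 1.74 CPM in WT and 3.13 and 3.29 CPM in Dnmt3a+/- pools of the Vwf- fraction. Vwf+ libraries were all above Vwf- libraries, but the nearest values were only 3.36 and 3.29 CPM, and 13% of all tested genes had no overlap between fractions. The log2 difference was 1.07 ± 0.31 (SE), or 2.10-fold (edgeR, adjusted p = 0.084, and 0.021 with the replicate block or in DESeq2). Plk2, a polo-like kinase gene and arrest target, stood 3.6-fold higher in Vwf+ cells (edgeR, adjusted p = 0.058, and 3.4e-08 with the block). It was also 2.64-fold higher in male libraries (edgeR, adjusted p = 4.4e-05). Genes of the damage kinases stood on the other side, with log2 differences of -0.36 ± 0.10 for Atr and -0.33 ± 0.13 for Atm (SE), and edgeR adjusted p of 0.063 and 0.22 that were 0.012 and 0.032 with the block. The death targets Pidd1, a scaffold for caspase activation, and Steap3, a metalloreductase, also stood lower in Vwf+ cells. Pidd1 stood at 10.5 to 21.9 CPM in Vwf+ and 24.7 to 40.2 CPM in Vwf- libraries, a fold of 0.570 (edgeR, adjusted p = 0.054, 0.00027 with the block and 0.004 in DESeq2). Steap3 stood at 3.6 to 6.24 CPM and 5.61 to 12.9 CPM, a fold of 0.484 (edgeR, adjusted p = 0.076, 0.0018 with the block and 0.011 in DESeq2). With the block alone the damage kinase gene Prkdc, the kinase subunit gene Prkab1 and the replication clamp gene Pcna were also lower, at folds of 0.762, 0.733 and 0.743, and the antiapoptotic gene Bcl2 was higher, at 1.27-fold.

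**Figure D4:**
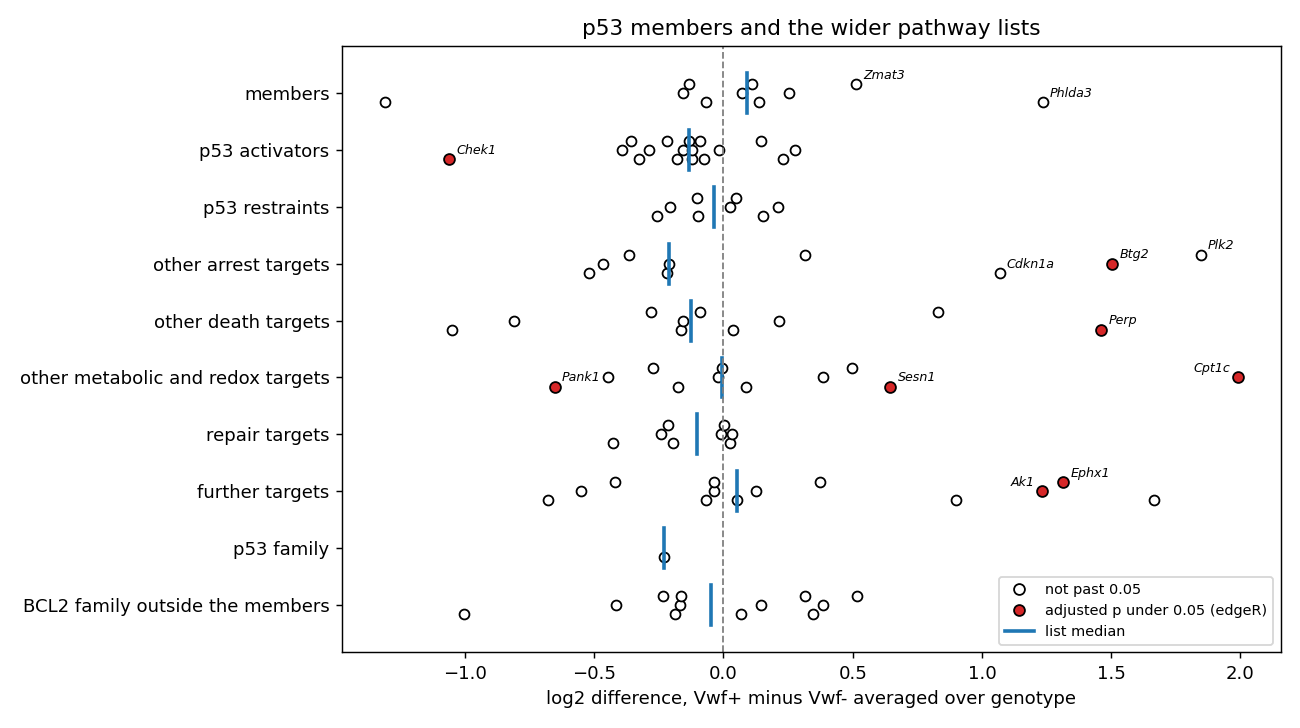
Log2 difference between Vwf+ and Vwf- cells, averaged over genotype, for the 10 genes and for each of the wider lists; filled points passed 0.05 in edgeR and blue bars are list medians. The 6 filled points to the right are Btg2, Perp, Sesn1, Cpt1c, Ephx1 and Ak1, and the 2 to the left are Chek1 and Pank1.

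Between the sexes 6 of the 89 genes were higher and 12 lower in male libraries, against 4.92% and 5.62% of all tested genes. DESeq2 called 6 higher and 18 lower, against 5.6% and 7.36%. Besides Mdm4 and Plk2, those higher in male libraries were Btg2 (1.72-fold), the phosphatase gene Ptprv (1.47-fold), Cpt1c (1.60-fold) and the non-coding Pvt1 (2.13-fold). Among those lower, besides Trim28, were the damage signalling genes Chek1 (0.666-fold), Rad50 (0.740-fold) and Prkdc (0.799-fold), Perp (0.558-fold), the arrest list gene Gtse1 (0.609-fold), the superoxide dismutase gene Sod2 (0.770-fold), Psrc1 (0.714-fold), Rap2b (0.765-fold), the antiapoptotic gene Bcl2 (0.791-fold) and the pro-death gene Bak1 (0.800-fold). Plk2 and Btg2 held their calls in all 16 alternatives, and Mdm4 in all but the fit on TPM, while each of the others named lost it in 3 or more.

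Individual libraries differed in several of the 10 genes at once. Vwf+ Dnmt3a+/- replicate 2 held the highest level of Phlda3 (7.13 CPM, the next 5.0), Sesn2 (23.5 CPM, the next 17.3) and Zmat3 (15 CPM, the next 11.9), and outside the 10 also of Cdkn1a (10.5 CPM, the next 5.35). Without that library the log2 difference between fractions was 1.10 for Phlda3, 0.43 for Zmat3 and 0.11 for Sesn2. This library also had the largest share of counts from the ribosomal precursor Rn45s, 11.9% against 6.08% to 9.83% in the others, and the part of that in its levels was not tested. As a description with no test, the mean log2 CPM of 8 targets, centred over libraries and leaving out the low Pmaip1, was 0.19 and 0.25 in Vwf+ Dnmt3a+/-, 0.15 and -0.05 in Vwf+ WT, -0.20 and -0.05 in Vwf- Dnmt3a+/- and -0.05 and -0.24 in Vwf- WT libraries. Phlda3 varied most among these 8 targets (SD of log2 CPM 0.91, the next being Zmat3 at 0.33) and weighs most in the mean. Its centred value was -1.41 in Vwf- WT replicate 2 and -1.08 in Vwf- Dnmt3a+/- replicate 1. The mean is therefore no measure of a shift shared by the 8 targets. The centred value of Trp53 itself ran from -0.23 to 0.26, with the lowest and the highest both in the Vwf- Dnmt3a+/- group.

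Likeness of pattern was measured as the root mean square difference of centred log2 CPM over the 8 libraries, among 10168 genes whose log2 CPM averaged over 3. The 5 genes nearest to Trp53 were Xrn2 (0.03), Ralgapb (0.03), Eif4a3 (0.03), Cdc5l (0.03) and Tnpo1 (0.04), against a median of 0.23 for all candidates and 0.17 for the profile of Trp53 against a flat line. The 5 genes nearest to the mean of the 9 targets were Rnf113a2 (0.10), Zcchc24 (0.10), Ttll1 (0.10), Aldh5a1 (0.11) and BC029722 (0.11), against a median of 0.28. This mean includes Pmaip1, with only 1 to 32 counts, and it follows Pmaip1 and Phlda3 most (SD of log2 CPM 1.1 and 0.91). In Vwf+ WT replicate 2 it was -0.25 with Pmaip1 and -0.05 without, so these neighbours do not show a pattern shared by the targets. All these profiles are over the same 8 libraries, and the lists carry no test.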

How the data were processed

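Total RNA of 8 libraries was sequenced, in 4 groups of 2. The deposited count table holds whole-number raw counts of 24421 genes, and the deposited TPM table holds the same counts divided by 1 fixed length per gene and scaled to 1e+06 per library, which was checked on the values. Per the submitters' processing notes, Trim Galore, STAR, featureCounts and DESeq2 were used with the mm10 build. Versions, annotation, strand setting and the handling of reads with several matches are not given in the sources used here. The 2 tables carry no molecular identifiers. In the fits on group means alone, p-values rest on the spread between the male and the female pool of a group. That spread holds differences between the sexes as well as between pools and libraries.

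Counts were tested in R 4.3.3 with edgeR 4.0.16, with filterByExpr at a minimum count of 10, TMM, 4 group means, all 8 libraries and the quasi-likelihood F-test (4 residual degrees of freedom, common dispersion 0.0732). Adjusted p-values are Benjamini-Hochberg values over 15917 genes with a threshold of 0.05. The SE is the log2 difference divided by the square root of F, and intervals are at 95%. The procedure was tested on simulated data. Alternatives were DESeq2 1.42.0, limma 3.58.1 on log2(TPM + 1) for genes with a mean TPM of at least 1, other scalings, no filter on low counts, Rn45s left out, the 4 libraries of a contrast alone, replicate blocks and each library left out in turn. Coordinates were matched to GENCODE M21.

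Same-numbered libraries have the same sex in every group. Differences between replicates 1 and 2 correlated at 0.13 to 0.30 across 15917 genes in all 6 pairs of groups. The numbers were therefore taken to pair libraries in the fits with a replicate block. The main edgeR fit for fraction, genotype and their interaction had group means alone and did not use this pairing. Its SEs, intervals and adjusted p-values thus include differences between the sexes in the spread within a group. The 10 genes and all gene lists were chosen with earlier results of these data known. All 10 genes were named in every comparison, and from the wider lists those that passed in any comparison, at most 5 per list by p, with Cdkn1a, Mdm4 and Wrap53 always. Genes called only with the block or DESeq2 (Plk2, Atr, Atm, Prkdc, Pidd1, Steap3, Prkab1, Pcna and Bcl2 between fractions) were named after their values were seen. One gene that met this rule is not reported here.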

Additional observations from a re-analysis of the deposited data

Results flagged for a closer look

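In sets of 4 libraries that share a fraction, a genotype or a sex, 3 of 60 sets held a library whose gap to the nearest other, divided by the range, was above the 95% critical value of Dixon's test. Chance flags about 1 in 20 such sets, so that number is near what chance gives.

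Sesn2 stood at 23.5 CPM in Vwf+ Dnmt3a+/- replicate 2, far from the other 3 Vwf+ libraries at 16.1 to 16.7 CPM. Bax stood at 16.8 CPM in Vwf- WT replicate 1, below the other 3 WT libraries at 20.4 to 21.0 CPM. Pmaip1 stood at 0.849 CPM in the same library, above the other 3 WT libraries at 0.0431 to 0.180 CPM, which rests on 24 counts against 1 to 6. No interaction of genotype and fraction passed for any of the 10 genes.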

How the results depend on the processing

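Of 960 values of 58 gene and comparison pairs under alternatives, 816 kept direction and side of the threshold, 110 lost a call, 15 gained one and 19 turned direction. Between fractions averaged over genotype the number of the 10 genes called was 0, and it was 1 with the replicate block, 1 in DESeq2, 1 with no filter on low counts (Phlda3 each time), 2 with each pair as a replicate block (Phlda3 and Zmat3), and 0 to 1 with a library left out. It was 1 in Dnmt3a+/- cells with each pair as a replicate block. Between the sexes it was 1 on library totals without TMM, 1 with upper quartile scaling (Mdm2 each time) and 0 to 1 with a library left out. In each other comparison and alternative run it stayed at 0. The replicate block changed no other call of the 10 genes. The cause of these changes was not tested.

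The difference of Sesn2 between genotypes, -0.010, was 0.032 in limma on TPM, 0.006 without TMM and 0.004 with upper quartile scaling. Among the 58 pairs, signs turned within these ranges with a library left out: Trp53inp1 (-0.15 to 0.004), Mdm4 (-0.29 to 0.14) between fractions, Sesn2 between fractions in WT (-0.068 to 0.019), and, between genotypes, Trp53 (-0.22 to 0.024), Mdm2 (-0.06 to 0.15), Bbc3 (-0.14 to 0.013), Sesn2 (-0.16 to 0.11) and Zmat3 (-0.033 to 0.20). A left-out library leaves its group with 1 library, assumed to vary like the others. Over all genes 866 were called between fractions, against 2132 with the replicate block, 2754 with each pair as a block, 1418 in DESeq2, 475 in limma on TPM, 1649 with no filter and 472 to 1387 with a library left out. In limma on TPM the median of all genes stood at -0.13 between fractions in WT, 0.13 between genotypes in Vwf+ cells and 0.17 in the interaction.

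Pmaip1, with 1 to 32 counts, was left out of limma on TPM and of the fits on WT and on Vwf+ libraries alone. The comparison of the sexes has the 4 group means in its fit, and so pairs the male and female library of a group. Depth limits Pmaip1.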

Other observations

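Among the antiapoptotic genes that oppose Bax, Bbc3 and Pmaip1, Mcl1 stood at 430 ± 27.6 CPM in Vwf+ and 389 ± 50.2 CPM in Vwf- libraries (SD, n = 4), a log2 difference of 0.15 ± 0.13 (SE, edgeR, adjusted p = 0.67). Bcl2l1, which encodes BCL-XL, stood at 49.4 ± 4.46 and 39.7 ± 2.41 CPM (SD, n = 4), a log2 difference of 0.32 ± 0.11 (SE, edgeR, adjusted p = 0.17). Bcl2 stood at 123 ± 17.3 and 97.3 ± 17.7 CPM (SD, n = 4), a log2 difference of 0.35 ± 0.15 (SE, edgeR, adjusted p = 0.25, and 0.015 with the replicate block). Of the 12 tested BCL2 family genes outside the 10, 0 passed between fractions in edgeR and 0 in DESeq2, against 5.44% and 8.91% of all tested genes. With the replicate block 1 passed, Bcl2, against 13.4%. In edgeR without the block 3 had an unadjusted p under 0.05, against 17.2%.

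Of the p53 family, Trp63 stood at 0.283 ± 0.270 CPM in Vwf+ and 0.351 ± 0.261 CPM in Vwf- libraries (SD, n = 4), and Trp73 had at most 12 counts in a library. Cdkn2a, which encodes the p53 activator p19Arf, had at most 6 counts in a library, and Sco2 had 0 in all 8.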
